A study of Caenorhabditis elegans with 2 samples.

Results

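The genes of the C. elegans DRM complex, together with its E2F and Rb-like partners, are 9 of the 19973 nuclear protein-coding genes in the annotation. They are lin-54, lin-53, lin-9, lin-37 and lin-52 (subunits of the MuvB core), lin-35 (the Rb-like pocket protein), dpl-1 (the DP protein), and efl-1 and efl-2 (E2F-like proteins). The list was chosen by name, and the strong signals at some of its genes in these same data were already known when it was drawn up, so the signals and counts of peaks at the members are a description and carry no test. A gene's regions were those with a summit, the position of highest signal, from 2000 bp upstream of its annotated 5' end to its other end. By that rule 6 of the 9 genes had a ZTF-4 peak that passed the authors' reproducibility threshold, and lin-37, dpl-1 and efl-2 had none.

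The data are chromatin immunoprecipitation sequencing (ChIP-seq) of ZTF-4, a zinc finger protein tagged with eGFP, in 1 group of 2 biological replicates. Both replicates were whole L1 larvae of pooled sexes from strain OP322, with the genotype unc-119(ed3) III and the insertion wgIs322, so both carry the unc-119 mutation and the tagged transgene. Whole animals do not show in which cells a site was occupied, and the control library behind the calls was not analysed here. In assembly ce11 replicate 1 had 27643 regions, replicate 2 had 27140 and pooling both gave 23044. Of these, 1898 passed the threshold of the irreproducible discovery rate (IDR), a method that weighs how alike regions rank in both replicates. The 1898 listed were the 1898 strongest regions by pooled signal, so a listed peak need not rank alike in both replicates. The signal is the authors' own height of a region. It is ranked here within a list only, since pooled signals lie near the sum of both replicates, and the sequencing depth is unknown.

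In C. elegans the MuvB proteins join LIN-35 and the heterodimer of EFL-1 and DPL-1 to form DRM, the worm counterpart of the DREAM complex of flies and mammals. The complex represses cell cycle genes in resting cells and germline genes in somatic cells. LIN-54 contacts DNA at a short element known as the CHR, and E2F with DP contacts a GC-rich site. Mutations in most of these genes were found through the synthetic multivulva (synMuv) class B phenotype of the vulva.

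The letters under 4 of the 6 summits are shown to make clear what kind of sequence the peaks lie on, since the signals by themselves do not. Each stretch runs 50 bp to either side of the summit, 5′ to 3′ on the strand of the named gene, and was read from the RefSeq copy of assembly WBcel235, which has the coordinates of ce11. The lin-54 stretch is IV:13240652-13240728 and stops where the annotated 5' UTR of the neighbouring gene rpl-12 begins. The lin-9 stretch is III:8904248-8904348, that of efl-1 V:16965802-16965902 and that of lin-52 III:9826102-9826202, all 3 on the minus strand. Capitals mark any of the 5 short words most enriched in other ZTF-4 peaks, the CHR words TTTGAA or TTCGAA, or an E2F core (TTCCCGC or TTGGCGC or TTCGCGC or TTGCCGC), on either strand.
lin-54: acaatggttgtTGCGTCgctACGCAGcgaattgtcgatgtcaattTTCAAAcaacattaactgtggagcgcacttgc
lin-9: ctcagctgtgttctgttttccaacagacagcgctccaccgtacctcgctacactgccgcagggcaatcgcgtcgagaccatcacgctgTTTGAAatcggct
efl-1: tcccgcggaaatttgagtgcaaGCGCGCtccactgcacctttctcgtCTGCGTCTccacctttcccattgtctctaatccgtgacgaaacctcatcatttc
lin-52: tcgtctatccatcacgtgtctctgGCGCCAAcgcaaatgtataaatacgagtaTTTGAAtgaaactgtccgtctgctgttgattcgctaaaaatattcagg

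Peaks were strong at 3 MuvB genes and at efl-1, weak at lin-52 and lin-35, and below the threshold at the other 3. Of the 9 members, 5 had an IDR summit in the promoter window, which spans the 1000 bp before the 5' end and the 200 bp after it, against 6.07% of all protein-coding genes (exact Clopper-Pearson 95% interval 5.75 to 6.41, counting error only). With the full window of 2000 bp upstream to the gene end it was 6 of 9, against 9.59% of all genes. That window depends on gene length, whose median was 2656 bp for the members and 2027 bp for all protein-coding genes. All 9 members had at least 1 region of any strength in the pooled list, as had 55.5% of all genes. Nothing is read from these counts about the members, because earlier results on the same peaks were known when the genes were listed.

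**Figure D1:**
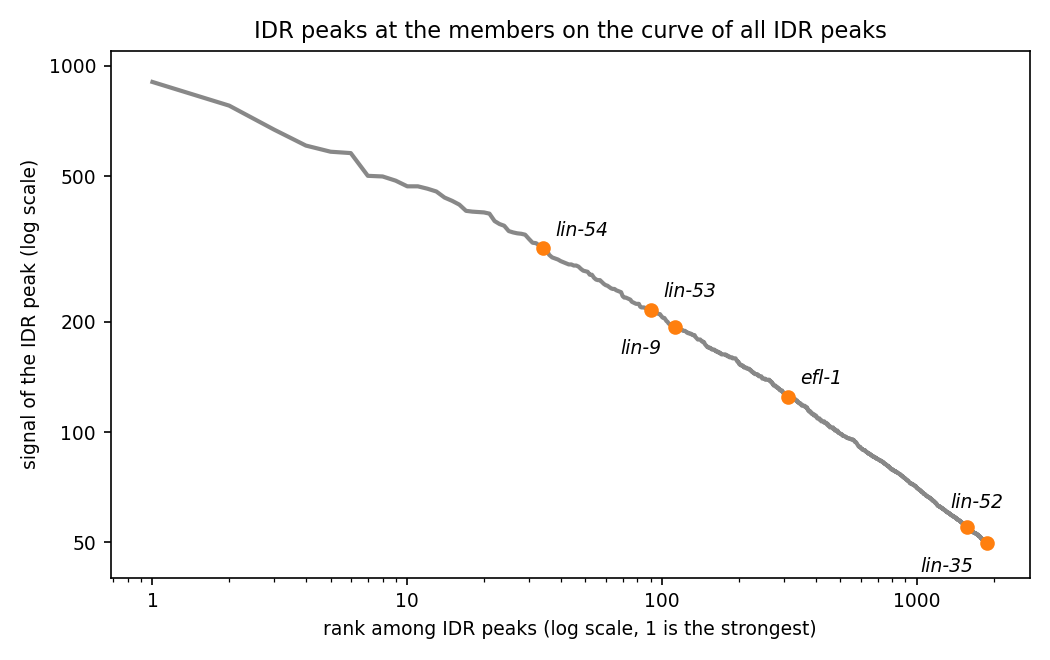
Signal of each IDR peak against its rank among all 1898, both on log scales, as a grey line, with the 6 peaks at member genes as orange points. The points of efl-1, lin-9, lin-53 and lin-54 lie at ranks 34 to 312, and those of lin-52 and lin-35 at 1568 and 1879, close to the end of the line.

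The highest signal belonged to lin-54 (WBGene00003037, IV:13241044-13243401, plus strand), which encodes the DNA-binding subunit of the MuvB core. Its peak (IV:13240573-13240775, intergenic) had a signal of 163 in replicate 1, 152 in replicate 2 and 318 in the pooled list. The ranks were 35, 36 and 34, and the summits of the 3 lists lay within 3 bp of each other, so the replicates placed the site alike. The summit stood at −366 bp from lin-54 but at −27 bp from rpl-12, a gene for a protein of the larger ribosomal subunit that is transcribed the other way. The 2 genes are 392 bp apart, and the peak falls in the promoter windows of both. Only weak regions accompanied it in the pooled list, at −1583 bp (signal 20.9, rank 10413) and in an intron at +1122 bp (17.2, rank 16054). Replicate 2 had a region near each of these and replicate 1 had neither.

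The gene lin-53 (WBGene00003036, I:9618196-9619760, minus strand) encodes a histone-binding protein of the RbAp46/48 type, which also serves in other chromatin complexes. Its peak at I:9619922-9620070 had signals of 125 in replicate 1 (rank 65), 90.6 in replicate 2 (rank 134) and 216 in the pooled list (rank 90). The replicate 2 summit lay 28 bp from the pooled one. The pooled summit lay between lin-53, at −242 bp, and nra-2, at −225 bp, a gene on the opposite strand that encodes a protein of the endoplasmic reticulum. Its nearest relative rba-1, a second RbAp46/48-type gene on the same strand just downstream of lin-53, had no promoter peak of its own. The lin-53 summit is also the strongest in the rba-1 window, at −1895 bp. Whether rba-1 is transcribed together with lin-53 was not analysed here.

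The third strong MuvB gene, lin-9 (WBGene00002998, III:8900237-8904131, minus strand), encodes a core subunit named for the vulval phenotype of its mutants. It was the only member whose promoter peak fell in no other promoter window. Its peak (III:8904223-8904369, intergenic) had signals of 93.8 in replicate 1, 100 in replicate 2 and 194 in the pooled list, with ranks of 143, 107 and 112. The pooled summit lay at −167 bp, and that of replicate 1 lay 8 bp away. A weaker region stood farther upstream at −1309 bp in the pooled list (signal 29.0, rank 5055), in the promoter window of unc-32, which encodes a subunit of the vacuolar proton pump. Both replicates had a region near it, at −1464 bp in replicate 1 (rank 3030) and at −1235 bp in replicate 2 (rank 2580), but only the summit of replicate 2 came within 100 bp of the pooled one.

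The remaining MuvB subunits, LIN-52 and LIN-37, are small proteins, and the regions at their genes differed between the replicates. At lin-52 (WBGene00003035, III:9824083-9824750, minus strand) the IDR peak (III:9825977-9826326, intergenic) had a signal of 18.4 in replicate 1 (rank 4227), 43.8 in replicate 2 (rank 677) and 55.0 in the pooled list (rank 1568). The ratio of replicate 1 to replicate 2 was 0.42, below the 5th percentile of 0.51 over the 1767 IDR peaks matched in both lists, and the summits of the replicates were 84 bp apart. At the other 5 members with an IDR peak this ratio lay between 0.936 and 1.38, near the median of 1.01 over the matched peaks. The summit lay at −1402 bp from lin-52, outside its promoter window, and at −720 bp from ZK632.9, the next gene upstream on the same strand. The region nearest to the 5' end of lin-52, at −52 bp, reached a signal of only 25.5 in the pooled list (rank 6715).

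At lin-37 (WBGene00003022, III:7070890-7072552, minus strand) the strongest region had the opposite imbalance. It lay at −1507 bp and had a signal of 31.1 in replicate 1 (rank 1421), 13.9 in replicate 2 (rank 7172) and 42.3 in the pooled list (rank 2513). It was in the promoter window of the upstream gene ZK418.5, at −208 bp, and it did not pass the IDR threshold. Within the promoter window of lin-37 itself the highest pooled signal was 20.0, at +36 bp in the coding exon (rank 11507), with summits at +37 bp in replicate 1 and +49 bp in replicate 2.

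The Rb-like gene lin-35 (WBGene00003020, I:5807709-5815637, plus strand), whose product binds E2F and the MuvB core, had the weakest of the 6 peaks. Its signals were 25.5 in replicate 1 (rank 2109), 19.8 in replicate 2 (rank 3298) and 49.9 in the pooled list (rank 1879 of 1898). Neither replicate ranked it among its own 1898 strongest regions, which held for 40 of the IDR peaks matched in both lists. The region (I:5807353-5807702) was intergenic, with its summit at −181 bp from lin-35 and −237 bp from vps-51, a gene of vesicle tethering on the opposite strand. The replicate summits lay 37 bp and 1 bp from the pooled one.

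The lowest signal of any IDR peak was 49.6 and the highest of any region left out was 49.5. Of the members, lin-35 (49.9, rank 1879) stood just inside. The next nearest were lin-52 (55.0, rank 1568) inside and the lin-37 region (42.3, rank 2513) outside, both farther from the threshold.

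The E2F side of the group was split. At efl-1 (WBGene00001161, V:16958590-16965675, minus strand), whose product pairs with DPL-1, the peak (V:16965677-16966026, intergenic) had signals of 66.3 in replicate 1, 54.1 in replicate 2 and 125 in the pooled list. The ranks were 307, 438 and 312, with summits within 3 bp of each other at −177 bp in the pooled list. It also fell at −962 bp from fbxa-90, an F-box gene on the opposite strand, close to the edge of that gene's window. No other region of any list was found along the 7086 bp of efl-1.

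At dpl-1 (WBGene00001061, II:9169910-9172565, plus strand), the DP partner, no list held a strong region. The strongest had a signal of 14.7 in replicate 1 (rank 7166, −612 bp), 7.40 in replicate 2 (rank 26085, −302 bp) and 18.8 in the pooled list (rank 13179, −571 bp). The pooled summit fell in a coding exon of T23G7.2, a gene on the opposite strand that runs across the whole of dpl-1. The summits of the 2 replicates were not at the same place, and the nearest IDR peak of the chromosome lay 52000 bp upstream of dpl-1.

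The other E2F-like gene, efl-2 (WBGene00001162, II:13406140-13411895, plus strand), is not counted among the subunits of DRM. It held regions in its body but none in the promoter window in any of the 4 lists. The strongest had signals of 12.0 in replicate 1 (rank 11620, +1996 bp), 9.78 in replicate 2 (rank 15608, +1703 bp) and 18.5 in the pooled list (rank 13592, +2646 bp). The third worm E2F-like gene, efl-3, also had no IDR peak. Its single pooled region had a signal of 16.8 (rank 16837). The gene ztf-4 itself had no region in any list.

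**Figure D2:**
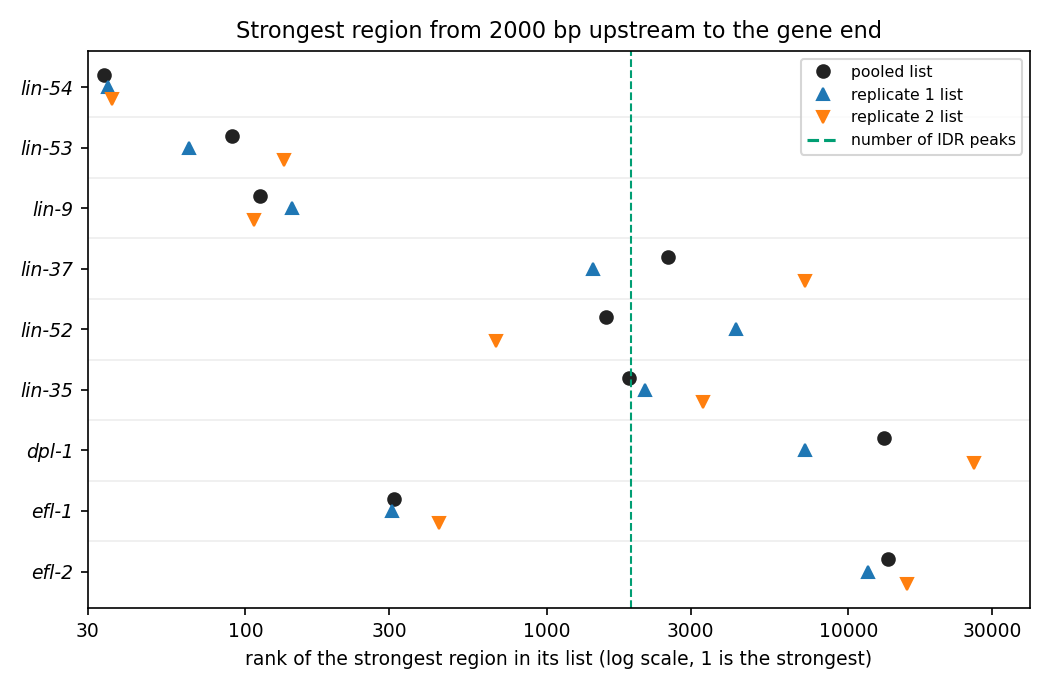
Rank of the strongest region from 2000 bp upstream to the gene end at each member, in the pooled list (black), replicate 1 (blue) and replicate 2 (orange), on a log axis where 1 is the strongest, with a dashed line at the 1898 IDR peaks. The strongest region of each list need not be the same site. All 3 markers of efl-1, lin-9, lin-53 and lin-54 lie left of the line, those of lin-37, lin-52 and lin-35 lie on or to both sides of it, and those of dpl-1 and efl-2 lie at rank 7166 or beyond.

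Below the threshold the median signal at the members was close to that of all regions left out, and no comparison of these regions was tested. The members held 15 such regions with signals from 14.9 to 42.3 and a median of 18.8, against a median of 19.2 over all 21146 regions left out. Of the 15, 6 had a summit within 100 bp in both replicates, against 27.6% of all regions left out. They were the lin-37 regions at −1507 and +36 bp, the lin-9 region at −1781 bp, the lin-52 region at −930 bp, and regions in the bodies of efl-2 (+1954 bp) and lin-35 (+1775 bp). The lin-35 region lay in a coding exon of C32F10.4, a gene inside lin-35 on the opposite strand. The IDR peaks of the members had summits within 100 bp in both replicates in 6 of 6 cases, against 93.1% of all IDR peaks. This is a description only, since the IDR list was derived from both replicates.

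**Figure D3:**
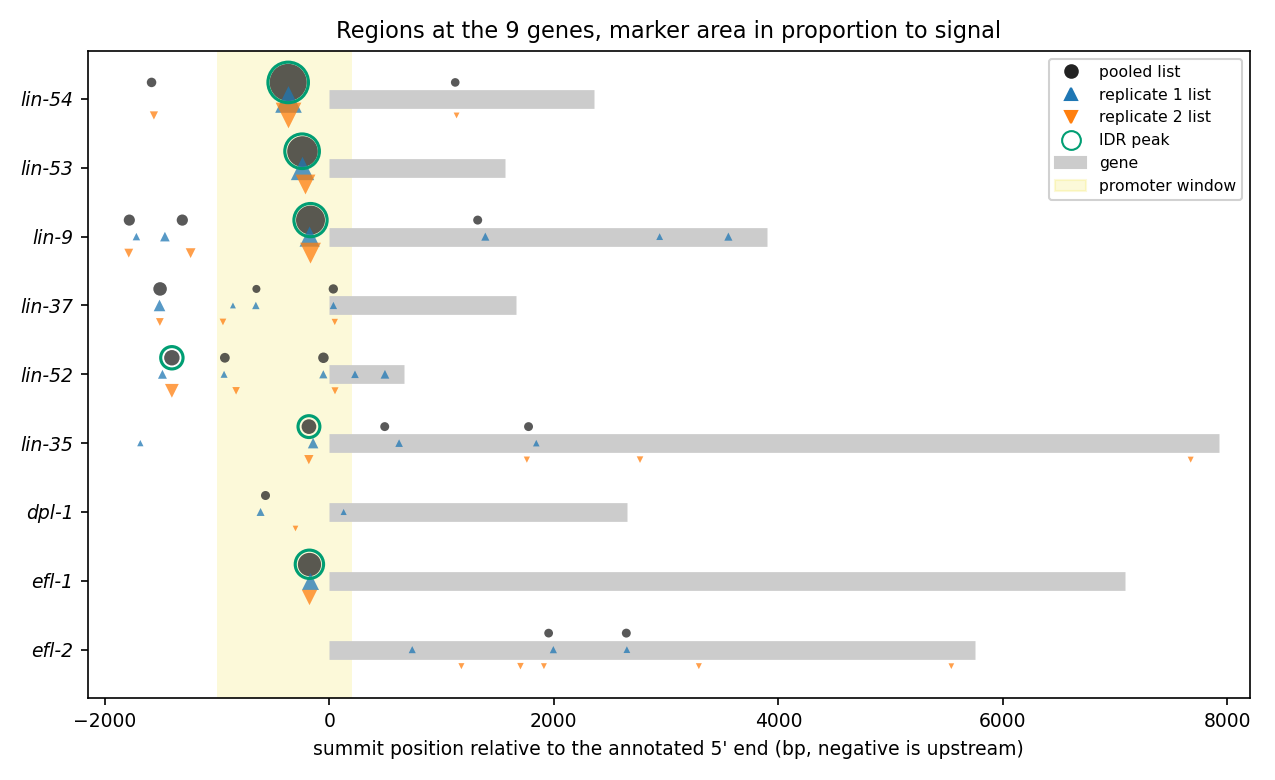
Summit positions at the 9 genes in bp from the annotated 5' end, with marker area in proportion to signal, for the pooled list (black), replicate 1 (blue) and replicate 2 (orange), with grey bars for the genes, yellow for the promoter window and green rings for IDR peaks. The promoter peaks lie between −366 and −167 bp, the ring of lin-52 lies at −1402 bp, and lin-37, dpl-1 and efl-2 have no ring.

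All 5 genes with a promoter peak had their nearest upstream neighbour on the opposite strand, so that both genes start from the stretch between them. The nearest upstream neighbour was on the opposite strand for 6 of the 9 members, 64.7% of the 1213 genes with a promoter peak and 45.4% of all protein-coding genes. Genes that overlap the gene itself were not counted as neighbours. At dpl-1, which is among the 6, T23G7.2 overlaps the gene and reaches into the stretch before it, so no shared start stretch is shown there. The gaps were 392 bp at lin-54, 466 bp at lin-53, 417 bp at lin-35, 1138 bp at efl-1 and 1483 bp at lin-9. Over all 1240 pairs of a gene and a promoter summit, the median position was −249 bp, with quartiles at −445.5 and −138 bp, and the 5 members lay within these quartiles. In 4 of the 5 the peak was shared with the neighbour's promoter window. Of the 936 promoter peaks in all, 287 were shared (30.7%). That share counts each peak once, however many genes it serves, so it is not a share of genes. Counted by gene, leaving shared peaks out took all protein-coding genes with a promoter peak from 6.07% to 3.15%. The members went from 5 to 1. For efl-1, lin-35, lin-53 and lin-54 the lists do not show to which gene of the pair a peak belongs. The upstream neighbours of lin-37 and lin-52 were on the same strand, with gaps of 60 and 126 bp. In C. elegans close genes on 1 strand are often transcribed together as operons, and operon membership was not analysed here.

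The summit windows were richer in G and C than promoter sequence of the same length. Over the 101 bases around the summit the GC content was 57.4% at lin-53, 56.4% at lin-9, 52.5% at efl-1, 49.5% at lin-54, 44.6% at lin-35 and 41.6% at lin-52. The median was 46.5% over all IDR windows, with quartiles of 41.6 and 51.5%, and 33.7% over windows centred 150 bp upstream of all protein-coding genes. The 4 members with strong peaks were therefore above the median of IDR peaks, and the 2 weak ones below it.

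The words most enriched at other ZTF-4 summits were found at lin-54 and efl-1. Over the IDR peaks away from these genes, the 5 6-mers with the highest ratio to flanking sequence were GCGCGC and ACGCAG and GACGCA and AGACGC and CGCGCC, each counted with its reverse complement. They occurred in 6.71 to 17.8% of those windows, at 6.86 to 9.41 times their share in windows 300 bp away. ACGCAG and GACGCA and AGACGC overlap each other. At lin-54 GACGCA and ACGCAG stood apart, 3 bases from each other in the printed stretch, while at efl-1 3 of the words overlapped near the summit (position 51) and GCGCGC stood before it. Any of the 5 was present in 2 of the 6 member windows, 34.1% of all IDR windows and 8.19% of promoter windows. When the windows were doubled in length, a choice made after seeing the data, 5 of 6 member windows held one, against 44.7% of IDR windows.

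Words that the members' own proteins are known to bind were also searched for. The CHR word TTTGAA was present at lin-54, lin-9, lin-52 and lin-53, 4 of 6 windows, against 13.8% of all IDR windows and 29.6% of promoter windows. TTCGAA was present at none of the 6, against 5.06% of IDR windows. An E2F core was present at lin-52 alone, as the reverse complement of TTGGCGC (1 of 6, against 7.38% of IDR windows and 3.57% of promoter windows). In the doubled windows, chosen after seeing the data, E2F cores were present at efl-1, lin-52, lin-54 and lin-9, 4 of 6, against 13.0% of IDR windows. TTTGAA was then also present at efl-1, so that 5 of 6 doubled windows held a CHR word, against 38.1% of IDR windows. The share over promoter windows was not taken at the doubled length. Such matches are letters in a window and do not show that LIN-54 or E2F bound there.

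Other genes of the pathway, from lists drawn up for this purpose, carried promoter peaks weaker than those of efl-1 and of the 3 strong MuvB genes. Of 12 other synMuv B genes, 2 had one, lin-13 (signal 87.2, −777 bp) and lin-36 (82.7, −249 bp), both of which encode zinc finger or THAP-type proteins. Of 25 cyclin, kinase and cell cycle ubiquitin ligase genes, 3 had one, namely lin-23 (95.9), which encodes an F-box protein that holds cells back from dividing, the inhibitory kinase gene wee-1.3 (62.3) and the cyclin E gene cye-1 (59.5). Of 28 DNA replication genes listed, 27 were found by name and 4 had one, led by pcn-1 (102), the sliding clamp PCNA, cdc-6 (86.3), the origin licensing factor, mcm-4 (75.3), a subunit of the replicative helicase, and pri-2 (52.6), a primase subunit. The peaks of cye-1, cdc-6 and pri-2 each also fell in the promoter window of another gene, so the lists do not show to which gene they belong. The same limit holds for the stronger peaks at efl-1, lin-53 and lin-54. All genes together stood at 6.07%, as given above, and no test was made of these pathway lists. The strongest of these peaks, at pcn-1, ranked 475, behind the efl-1 peak at rank 312 and ahead of those of lin-52 and lin-35.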

How the data were processed

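The deposited file records state that the authors called regions on each replicate and on the pooled alignments, with a control, and derived the IDR list from those 3. The aligner, caller and cutoff of the IDR step were not given in the sources used here. A region's signal and −log10 q value are used as the authors deposited them. The 4 lists of assembly ce11 were used, and the ce10 lists were not used here because the reference is of the other build. All region ends fell within the chromosome lengths of WBcel235. Genes came from Ensembl release 115. Positions count from base 1.

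Summits were assigned to genes with Python 3.11.15, numpy 2.4.6, pandas 2.3.3 and scipy 1.17.1. Summits within 100 bp counted as the same site. The 6-mers had to occur in at least 5% of windows. No test was made, since there is 1 group and the members and lists were chosen with earlier results of these data known. Genes named beside the members are those sharing a summit, up to 4 per pathway list, efl-3, rba-1 and ztf-4. Alternatives covered replicates, thresholds, windows, gene assignment and overlap.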

Additional observations from a re-analysis of the deposited data

How the results depend on the processing

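The count of 5 members with a promoter peak was 4 with either replicate alone, as many regions being taken as there are IDR peaks, and in both cases lin-35 dropped out. It was also 4 among the 949 stronger IDR peaks (without lin-35) and in a narrow window of 300 bp before and 100 bp after the 5' end (without lin-54). It was 6 in a wide window of 2000 bp before and 500 bp after it, which takes in lin-52, and 5 when any base of the region counted. With all relaxed pooled regions it was 8 (efl-2 excepted), with a peak counted for its nearest gene alone 3 (lin-9, lin-35 and efl-1), and with peaks shared between promoters left out 1 (lin-9). The share over all genes, 6.07%, was 5.53 to 6.06% with 1 replicate, 3.41% among the stronger peaks, 32.6% with all relaxed regions, 3.60% in the narrow and 8.17% in the wide window, 7.73% with the nearest gene, 3.15% without shared peaks and 6.55% by overlap.

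The count of 6 members in the full window was 5 without either replicate, with lin-37 in place of lin-52 and lin-35 when replicate 2 was left out and without lin-35 when replicate 1 was, 4 among the stronger peaks and 5 with 1000 bp upstream. Matches in both replicates numbered 5 of 6 within 50 bp (without lin-52) and 6 within 200 bp or by overlap. Peaks in 2 or more promoter windows numbered 4, but 2 in the narrow window (lin-35 and lin-53) and 6 in the wide one. In the longer sequence windows, added after seeing the data, the windows with an enriched 6-mer numbered 5 in place of 2 (44.7% in place of 34.1% of all IDR windows), those with an E2F core 4 in place of 1 (13.0% in place of 7.38%) and those with a CHR word 5 in place of 4 (38.1% in place of 18.0%). Longer windows hold more letters. The files give no read counts, so precision could not be tied to depth.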

Other observations

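The 3 strongest peaks of the group were narrower than most. They covered 203 bp at lin-54, 149 bp at lin-53 and 147 bp at lin-9, whereas those of efl-1, lin-52 and lin-35 had the common width of 350 bp. Narrow peaks were usual at these ranks, with 95 of the 112 peaks down to the rank of lin-9 below 350 bp, against 21 of the 1586 beyond the rank of efl-1.

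The distance to the next IDR peak varied widely between the members. The next IDR peak outside the gene and its upstream 2000 bp was 143596 bp away from efl-1, 79276 bp from lin-54, 50527 bp from lin-35, 12793 bp from lin-9 and 5099 bp from lin-52. At lin-53 it was 6314 bp upstream and ranked 63, ahead of the lin-53 peak itself (rank 90). At lin-37, dpl-1 and efl-2 it was 44277, 52000 and 35994 bp away.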
